A study of Mus musculus with 4 samples.

Results

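The clustered protocadherins are described here in cultured mouse neural stem/progenitor cells (NSPCs), with and without the PARP inhibitor PJ34 and with and without the gene for p53. The members are the array probes whose gene name begins with Pcdha, Pcdhb or Pcdhg. There were 38 such probes, on 47 spots, for 35 gene names, of 55681 probes for 36406 gene names on the array. The alpha cluster had 9 probes for 7 names, the beta cluster 22 probes for 22 names and the gamma cluster 7 probes for 6 names. A RefSeq gene table of GRCm38.p6 lists 14, 22 and 22 genes for these clusters, so the array named every beta gene but less than the whole of the alpha and gamma clusters.

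Clustered protocadherins are cadherin-like proteins of the neuronal surface that bind the same isoform on another cell. Each alpha and gamma isoform joins its own large variable exon to constant exons at the end of the cluster, while each beta gene is a single exon with no constant part. A neuron uses a combination of isoforms, set by the choice of promoters with the help of the DNA-binding protein CTCF and the cohesin complex. The combination serves self-avoidance of dendrites, axon targeting and, for the gamma cluster, survival of neurons. The C-type isoforms at the end of the alpha and gamma clusters are used more broadly than the others.

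NSPCs were taken from embryos at day 13.5, labelled as Slc:ICR in both genotypes, and grown as neurospheres in medium with B-27, EGF and FGF. The Trp53-/- cells came from the breeding of Trp53-heterozygous mice, and the wild-type cells carried no named allele. On each of 4 arrays, RNA of cells treated with 20 µM PJ34 was labelled with Cy5 and RNA of untreated cells of the same genotype with Cy3. Each genotype had n = 2 arrays, on slides of their own, with RNA prepared independently for each. The time in PJ34 before RNA extraction is not given in the sources used here. The dyes were not swapped, so the effect of PJ34 on a probe cannot be told apart from dye bias. In such cultures, fewer cells of a type and less RNA per cell cannot be told apart either.

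As to the labels, the Trp53 probe in untreated cells had log2 intensities of 8.28 and 8.51 in wild-type and 7.56 and 7.82 in Trp53-/- (difference -0.71, q = 0.0585), and it was well above background on all 4 arrays. The sources used here do not say whether this probe lies in the deleted part. All 11 progenitor markers, among them Nes and Sox2, were well above background in both channels of all 4 arrays. The array Trp53-/- replicate 2 stood apart. The Y-linked Eif2s3y was at 6.24 (not well above background) in its control channel and at 10.46 in its PJ34 channel, and Ddx3y was at 6.17 and 9.29. Both genes were well above background in untreated wild-type cells (8.96 and 8.47 for Eif2s3y) and not in untreated Trp53-/- cells (6.01 and 6.24). Sex and genotype therefore cannot be told apart in the comparison of untreated cells, and whether the channels of Trp53-/- replicate 2 came from the same embryos was not tested. In the ratios of that array a difference in source and the effect of PJ34 cannot be told apart. Values without it therefore stand beside the main results of the members in Trp53-/-. Ratios of listed genes in Trp53-/- carry the same limit.

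About 1 member probe in 2 gave a signal. In untreated cells, 15 to 17 of the 38 member probes were well above background per array (39.5% to 44.7%), against 38.6% to 44.1% of all probes. In PJ34-treated cells there were 16 to 20 (42.1% to 52.6%), against 46.8% to 48.8%. A probe was tested where 1 of its channels or both stood well above background on every array of a genotype. This left 18 member probes (47.4%) for 16 gene names, against 48.6% of all probes, and they were 4 of 9 alpha, 11 of 22 beta and 3 of 7 gamma probes. The signals of these probes make up the results below, and the other 20 had no usable ratio.

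The beta probes with a signal were mostly those in the later part of the cluster. The 22 beta probes lie on chromosome 18, between positions 37427011 and 37680728 of build mm9, in the order of their numbers. Pcdhb1 to Pcdhb5, at one end, were left out, as were Pcdhb8, Pcdhb9, Pcdhb11, Pcdhb13, Pcdhb15 and Pcdhb19. Kept were Pcdhb6, Pcdhb7, Pcdhb10, Pcdhb12, Pcdhb14, Pcdhb16, Pcdhb17, Pcdhb18, Pcdhb20, Pcdhb21 and Pcdhb22. Of the beta probes left out, Pcdhb2 and Pcdhb15 were above background in the PJ34 channel of 1 array each, Pcdhb19 in 1 control and 1 PJ34 channel, and the others in none. On every array 11 of 22 beta probes were above background in untreated cells, and 11 to 13 of 22 were after PJ34.

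In the alpha and gamma clusters most of the signal came from probes that the files list with transcripts of several isoforms. The Pcdhac2 probe A_55_P1963533 (chr18:37347235-37347294) is listed with transcripts of Pcdhac2, Pcdha9, Pcdha4 and Pcdhac1. It lies beyond all other alpha probes, on the side of the constant exons, and was above background in all 8 channels. Pcdhga9 has 2 probes of this kind, A_52_P667913 (chr18:37999725-37999784) and A_55_P1961863 (chr18:38001378-38001437), both listed with Pcdhga9, Pcdhga5 and Pcdhga6 and lying beyond all other gamma probes. The first is also listed with the gene Gm37013 and the second with Pcdhga1. Both of these Pcdhga9 probes were above background in all 8 channels too. These 3 probes are called shared in the text below, and their values cannot be given to a single isoform. The Pcdha8 probe A_55_P2106584 is listed with Pcdha8, Pcdha7, Pcdha4 and Gm37013, and the figures mark it as shared too. It was also above background in all 8 channels, whereas the other Pcdha8 probe, A_55_P2106586, listed with Pcdha8 alone, was in none.

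Probes listed with 1 alpha or gamma isoform gave little signal. Those of Pcdha4, Pcdha11, Pcdha12, Pcdhgb1, Pcdhga5 and Pcdhga10 were not well above background in any channel. Of the C-type isoforms, Pcdhac1 and Pcdhgc5 were not above background in any channel, and Pcdhgc3 and Pcdhgc4 had no probe of that name. The probe of Pcdhac2 alone, A_55_P2471752, was above background in 3 control and 2 PJ34 channels. Pcdha9 was in 1 control and 3 PJ34 channels and Pcdhga1 in 0 control and 3 PJ34 channels. Probes were 60 bases long, and the 2 most alike members differed by 25 edits. The median GC content was 37.5% for kept members, 45.0% for members left out and 43.3% for all probes, and its part in which members were kept was not tested.

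**Figure D1:**
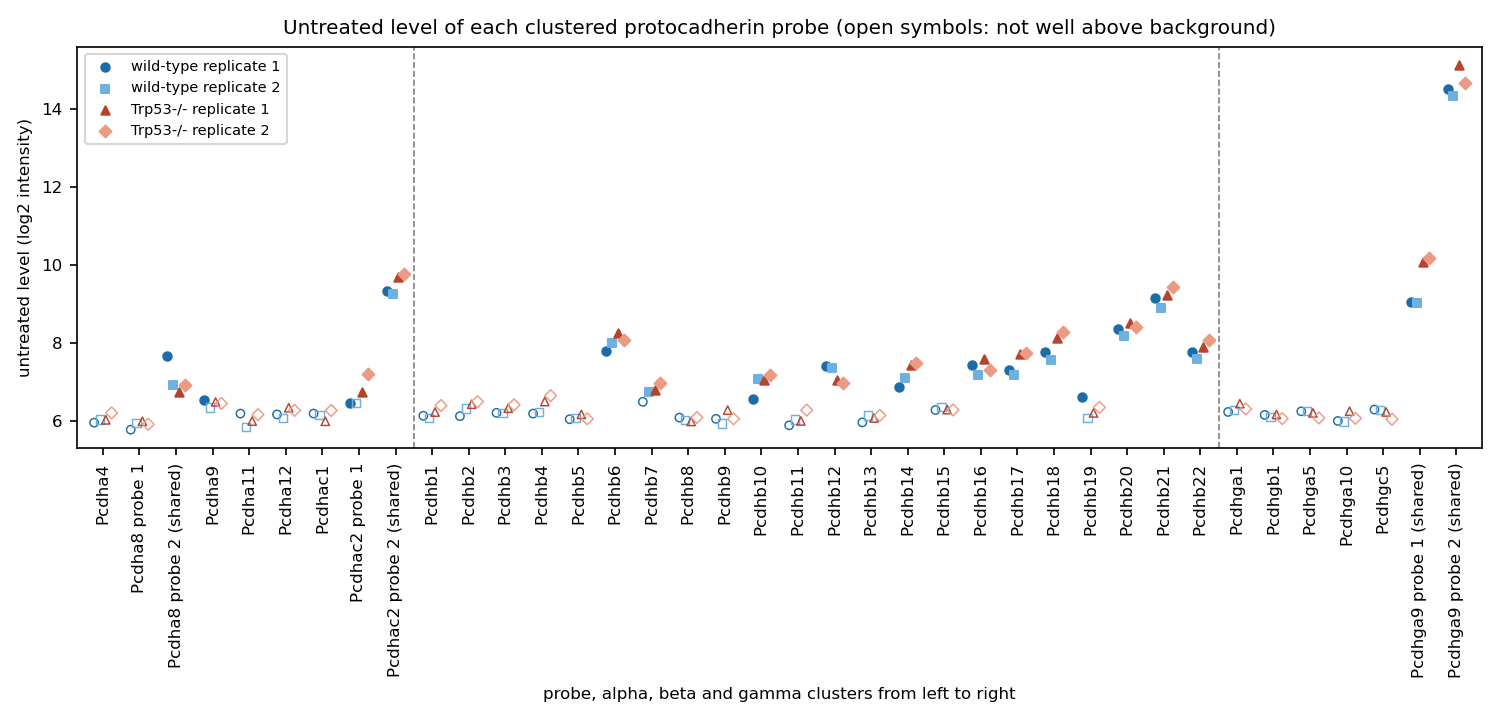
Untreated level (log2 intensity, y axis) of each of the 38 member probes (x axis, by position within the alpha, beta and gamma clusters) on the 4 arrays, with filled symbols for signals well above background and open ones for the others. Beta signals sit above background mainly from Pcdhb6 onward, and in the alpha and gamma clusters the shared Pcdhac2 and Pcdhga9 probes stand out on all 4 arrays. Levels of different probes are not comparable as amounts of RNA.

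The first question was whether PJ34 changed the clusters in wild-type NSPCs. No member was called, that is, 0 of 18 passed p and q below 0.05 with more than a 2-fold change in either direction, where 0.263% of 27035 tested probes were called higher and 0.174% lower. With an unadjusted p below 0.05 there was 1 member higher and there were 2 lower (16.6% and 13.7% of all tested probes). The 95% intervals of the 18 log2 ratios of PJ34 over control ran from -0.68 to 0.47 at their extremes. Each lay within 2-fold with the offset of 50 used in the background correction. With an offset of 16, the probe of Pcdhac2 alone was at -0.47 in place of -0.27, and Pcdhb10 at 0.38 in place of 0.26. With the scanner's log ratios that Pcdhac2 probe was at -1.30, beyond 2-fold. The intervals are therefore no bound on the effect of PJ34 under every setting. Without the fold limit, 1 member was higher (12.3% of all tested probes) and 2 were lower (10.4%).

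In wild-type cells, those 3 members were at both ends of the range. The shared Pcdhac2 probe A_55_P1963533 had log2 ratios of -0.60 and -0.31 (mean -0.46, SE 0.10, q = 0.0065). The probe of Pcdhac2 alone had ratios of -0.28 and -0.26 (mean -0.27, SE 0.10, q = 0.0467), with its PJ34 channel not well above background on either array, which made the control channel at least 1.16-fold higher. Pcdhb10 had the highest mean, with ratios of 0.32 and 0.20 (mean 0.26, SE 0.09, q = 0.0423). Both arrays of each of the 3 probes were on the same side of 0. With 1 wild-type array left out, the spread came from the Trp53-/- arrays alone. Without replicate 1 the values were -0.31 (q = 0.128), -0.26 (q = 0.205) and 0.20 (q = 0.278). Without replicate 2 they were -0.60 (q = 0.00696), -0.28 (q = 0.173) and 0.32 (q = 0.112). With the scanner's own log ratios the probe of Pcdhac2 alone was at -1.30 (q = 0.0453) and was called.

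The cluster medians in wild-type lay near that of all probes, with no test. The median log2 ratio was -0.097 over the 4 alpha probes (-0.18 and -0.044 on the 2 arrays), 0.068 over the 11 beta probes (0.10 and -0.0091) and 0.21 over the 3 gamma probes (0.34 and 0.027), against 0.028 over all tested probes. In the beta cluster, 7 of 11 means were above 0, from -0.16 for Pcdhb22 to 0.26 for Pcdhb10. In the gamma cluster the shared probe A_52_P667913 had the highest mean, with ratios of 0.40 and 0.03 (q = 0.12). Replicate 1 was above replicate 2 for it, for the other shared Pcdhga9 probe (0.34 and 0.07) and for Pcdhga1 (0.17 and -0.12), whose control channel was not well above background.

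In Trp53-/- NSPCs the same question gave 0 of 18 members called, where 0.0703% of tested probes were called higher and 0.248% lower. With an unadjusted p below 0.05, 1 member was higher and 4 were lower (17.1% and 12.9% of all tested probes). The 95% intervals reached from -0.63 to 0.59, each again within 2-fold under the same offset. Without the fold limit, 1 member was higher (12% of all tested probes) and 3 were lower (9.68%).

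The lower members were the shared Pcdhac2 probe and the last beta genes. The shared Pcdhac2 probe had ratios of -0.35 and -0.48 (mean -0.41, SE 0.10, q = 0.0115). Pcdhb21 had ratios of -0.30 and -0.35 (mean -0.32, SE 0.09, q = 0.0206). Pcdhb22, its neighbour at the end of the cluster, had ratios of -0.34 and -0.36 (mean -0.35, SE 0.09, q = 0.0128). Pcdhb16 was the higher one, with ratios of 0.18 and 0.54 (mean 0.36, SE 0.10, q = 0.0221), and without replicate 2 its value was 0.18 (q = 0.388). Without replicate 2, with the spread taken from the wild-type arrays, the values were -0.35 for the shared Pcdhac2 probe (q = 0.147), -0.30 for Pcdhb21 (q = 0.191) and -0.34 for Pcdhb22 (q = 0.134), and 0 of 18 members had q below 0.05. Without replicate 1, q was 0.0895 and 0.0763 for Pcdhb21 and Pcdhb22. Medians were -0.11 for alpha, -0.0074 for beta and -0.016 for gamma, against 0.032 over all tested probes. Replicate 1 by itself gave -0.094, -0.088 and -0.15 (the values without replicate 2), whereas replicate 2 by itself gave -0.13, 0.051 and 0.12, so that the sign for beta and gamma depended on the array. The highest alpha mean was that of the Pcdha8 probe listed with several isoforms (0.12), and the highest gamma mean was that of Pcdhga1 (0.13, at least 1.04-fold higher since its control channel was not well above background), with ratios of 0.0042 without replicate 2 and 0.25 on replicate 2.

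Across both genotypes, 4 of 18 members had a ratio below 0 on all 4 arrays (16.9% of all tested probes) and 1 had a ratio above 0 on all 4 (23.6%). Those below were both Pcdhac2 probes, Pcdhb21 and Pcdhb22, and the one above was Pcdhb16. These directions were set against the loess centre of each array. With median centring in its place, the median over all tested probes moved to 0.42 in wild-type and 0.57 in Trp53-/-, and the shared Pcdhac2 probe was at 0.10 and 0.36, positive but still below those medians. Under that centring Pcdhb21 and Pcdhb22 were at 0.41 and 0.17 in Trp53-/-, below the median of all probes too.

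**Figure D2:**
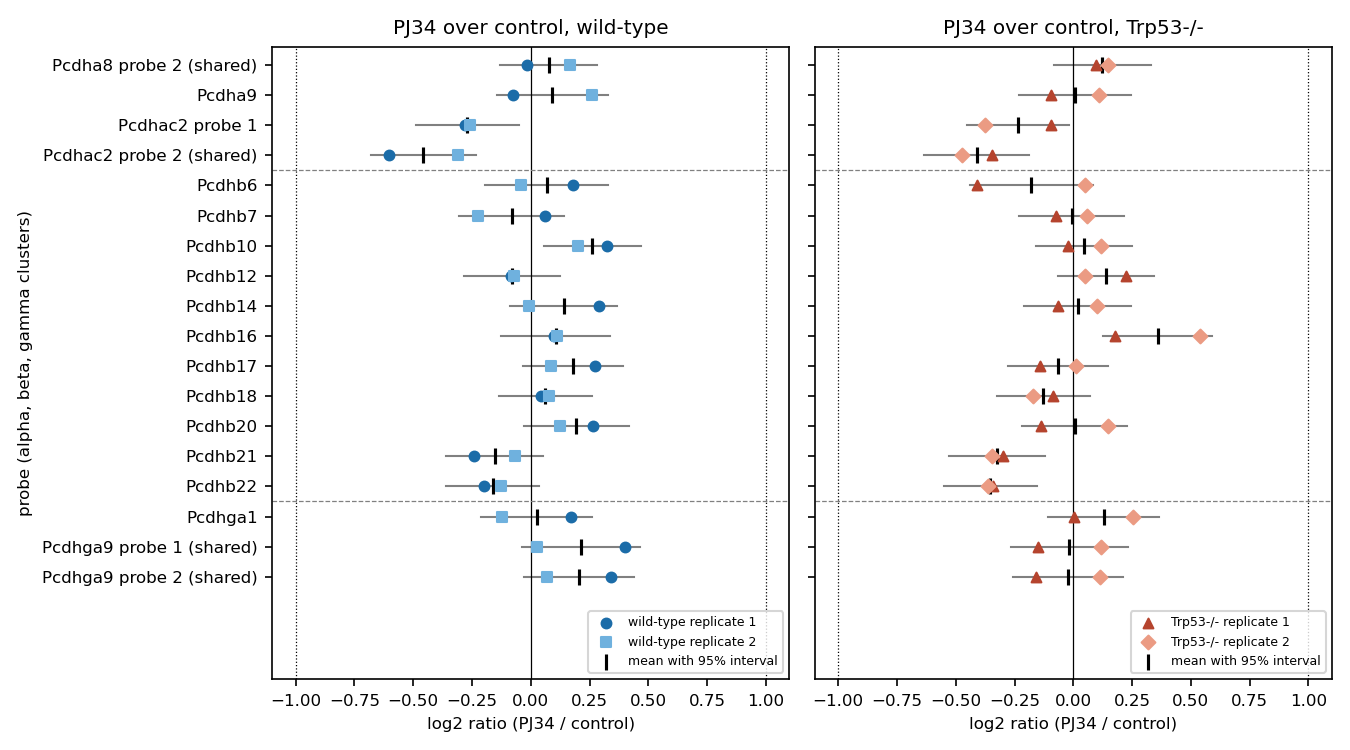
Log2 ratio of PJ34 over control (x axis) of the 18 tested member probes (y axis) in wild-type and Trp53-/- NSPCs, with 1 symbol per array, a bar for the mean and a line for its 95% interval; dotted lines mark a 2-fold change. With the offset of 50, every interval lies between the dotted lines, and both Pcdhac2 probes, Pcdhb21 and Pcdhb22 lie left of 0 on all 4 arrays.

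The third question was whether the response to PJ34 differed with p53. It was called different for 0 of 18 members, where 0.399% of tested probes had a higher and 0.0222% a lower response in wild-type, and 0 of 18 passed an unadjusted p below 0.05 (7.06% and 6.92% of all tested probes). Without the fold limit the count was 0 of 18 too (1.11% and 0.355%). The largest differences, as wild-type minus Trp53-/-, were 0.25 for Pcdhb6 (95% interval -0.12 to 0.62) and -0.25 for Pcdhb16 (-0.58 to 0.07). Pcdhb12 was below 0 on both wild-type arrays (-0.08 and -0.07) and above 0 on both Trp53-/- arrays (0.23 and 0.05), with a difference of -0.22 (q = 0.378). Pcdhb18 went the other way (0.04 and 0.08 against -0.09 and -0.17), with a difference of 0.19 (q = 0.412). For the shared Pcdhac2 probe the difference was -0.05 (95% interval -0.36 to 0.27). The cluster medians of the difference were -0.040 for alpha, 0.19 for beta and 0.23 for gamma, against -0.010 over all tested probes, and all 3 were below 0 with median centring, where the median over all tested probes was -0.14.

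Untreated cells of the 2 genotypes were then compared in the control channel. This comparison is between arrays, so a difference between slides cannot be told apart from one between samples. The shared gamma probe A_52_P667913 was the only member called. It had log2 intensities of 9.05 and 9.04 in wild-type and 10.09 and 10.19 in Trp53-/-, so that both Trp53-/- arrays were above both wild-type arrays by more than the spread within a genotype. The difference was 1.10 (SE 0.16, 95% interval 0.71 to 1.48, q = 0.0213), or 2.14-fold. It was 1 of 18 members called higher and 0 of 18 called lower, against 1.67% and 1.65% of all tested probes. The counts were the same, 1 and 0, with no limit on the fold (3.13% and 2.91%). The PJ34 channel of the same probe, on the same arrays, was at 9.45 and 9.07 in wild-type and 9.95 and 10.30 in Trp53-/-.

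The size of this difference changed little with an array left out. It was 1.10 without wild-type replicate 1 and 1.09 without wild-type replicate 2, with the spread taken from the Trp53-/- arrays. Without Trp53-/- replicate 2 it was 1.05 and without Trp53-/- replicate 1 it was 1.14, with the spread taken from the wild-type arrays. Each of these fits left 1 array in a genotype, so only the size of the difference is given. The probe was not called with median centring (1.26, q = 0.122), where 0 of all tested probes were. It was not called with the scanner's processed signal either (1.29, q = 0.0544), where 221 were called higher and 449 lower. The other shared Pcdhga9 probe, A_55_P1961863, was at 14.52 and 14.34 in wild-type and at 15.13 and 14.67 in Trp53-/- (difference 0.47, q = 0.148). It lay in the same direction without overlap, but with a 95% interval from -0.04 to 0.99. The 2 shared probes thus gave different values for transcripts of which the files list 3 genes in common. Only the called probe is also listed with Gm37013, and only the other with Pcdhga1. The part of this in their values was not tested. Pcdhga1 was not well above background in the control channel of either genotype.

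Levels of most other members lay on the same side, by less. Of the 18 members, 16 had a higher mean in untreated Trp53-/- cells (51.3% of all tested probes), and 13 had both Trp53-/- arrays above both wild-type arrays (28.3% of all tested probes), while 2 had both below (26.9%). With an unadjusted p below 0.05, 6 members were higher and 0 lower (10.9% and 11.4% of all tested probes). The probe of Pcdhac2 alone and Pcdhga1 had been kept through their detection in Trp53-/- cells only, and Pcdha9 through wild-type only, so these counts favour the genotype of detection for them. Of the 15 members detected in both genotypes, 13 had a higher mean (52.4% of all such probes), 11 had both Trp53-/- arrays above both wild-type arrays (28.6%), 2 had both below (25.8%), and 5 were higher and 0 lower at an unadjusted p below 0.05 (11.3% and 11.8%). The median difference was 0.23 over the alpha, 0.30 over the beta and 0.47 over the gamma probes, against 0.012 over all tested probes. Over the members detected in both genotypes it was -0.017 for the 2 alpha, 0.30 for the 11 beta and 0.78 for the 2 gamma probes, against 0.021 over all such probes. Under the scaling alternatives (quantile normalization of the control channel alone, median centring and the scanner's processed signal), 15 or 16 of 18 means were above 0. The median over the 20 members left out was 0.074.

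Among the beta genes, 10 of 11 means were higher in untreated Trp53-/- cells. Pcdhb18 had the largest difference, with 7.77 and 7.56 in wild-type and 8.12 and 8.28 in Trp53-/- (0.54, 95% interval 0.11 to 0.96, q = 0.0877). Pcdhb12 was the exception, with 7.41 and 7.37 in wild-type and 7.05 and 6.98 in Trp53-/- (-0.38, 95% interval -0.76 to 0.01, q = 0.134). For both genes the arrays of the genotypes did not overlap.

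In the alpha cluster no probe passed the threshold. The shared Pcdhac2 probe was at 9.34 and 9.27 against 9.71 and 9.78 (0.44, 95% interval 0.05 to 0.83, q = 0.107). The Pcdha8 probe listed with several isoforms was at 7.68 and 6.92 in wild-type and at 6.73 and 6.92 in Trp53-/- (-0.47, q = 0.209), where wild-type replicate 1 alone lay apart. The probe of Pcdhac2 alone was at 6.47 and 6.47 in wild-type and at 6.75 and 7.20 in Trp53-/- (0.50, q = 0.126), and since it was kept only through Trp53-/- its direction supports nothing.

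**Figure D3:**
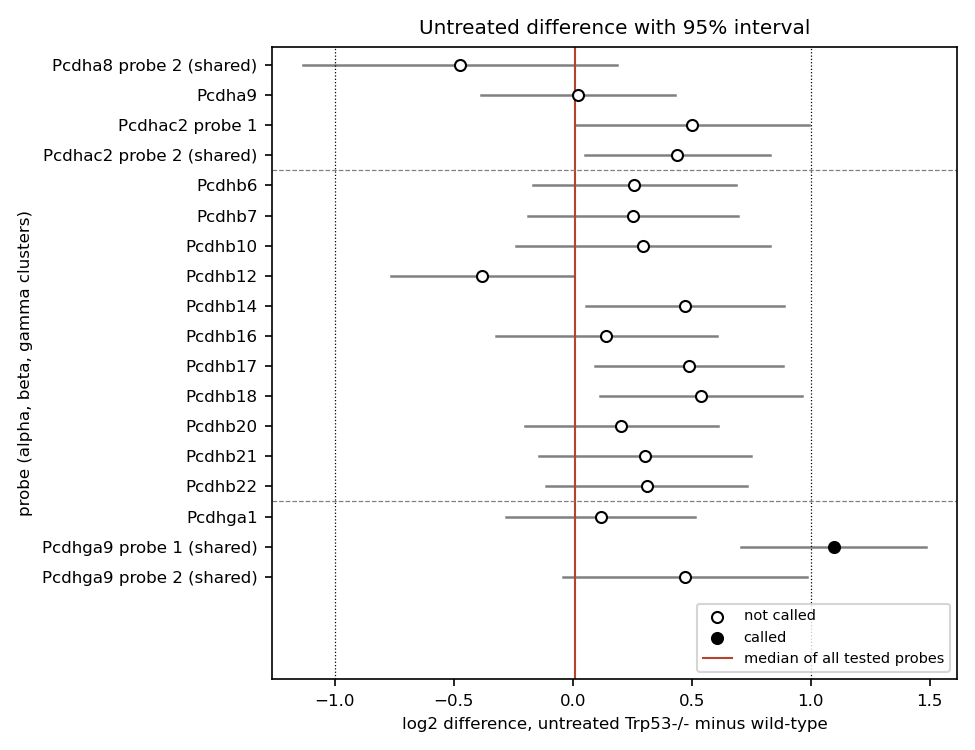
Difference of the untreated log2 level, Trp53-/- minus wild-type (x axis), of the 18 tested member probes (y axis) with 95% intervals (n = 2 arrays per genotype); the red line is the median of all tested probes and dotted lines mark a 2-fold difference. The shared probe A_52_P667913 (Pcdhga9 probe 1) at 1.10 is the one called, and 16 of 18 points lie right of 0.

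Some markers of other cell types moved with genotype beside these values, in both directions. Of 13 neuron markers, 10 or 11 were above background in untreated wild-type and 10 to 12 in Trp53-/- cells, with summed log2 levels of 113.1 and 113.6 against 119.9 and 120.6. Mapt (1.94), Rbfox3 (1.24) and Elavl3 (1.10), genes of maturing neurons, were called higher in untreated Trp53-/- cells, and 0 neuron markers were called lower. With no limit on the fold 4 were higher and 1 lower, Snap25, a gene of the synapse (-0.73, q = 0.0481), and Map2 (-0.45, q = 0.244) and Elavl4 (-0.27, q = 0.382) had means below 0. Of 7 astrocyte markers, 6 or 7 against 7 were above background, with sums of 62.2 and 64.2 against 68.3 and 68.8, and Gfap (2.38) and S100b (1.89) were called higher. Aldh1l1 (-0.58, q = 0.29) and Gja1 (-0.10, q = 0.488) had means below 0. All 9 oligodendrocyte markers were above background, with sums of 88.5 and 90.3 against 95.5 and 95.8, and the myelin gene Mbp (1.98) was called higher. Pdgfra (-0.71, q = 0.0522), Mog (-0.41, q = 0.122) and Olig1 (-0.03, q = 0.549) had means below 0, so the sums do not stand for every marker. The part of these cell type markers in the protocadherin values was not tested. Progenitor marker sums were 117.9 and 121.5 in wild-type and 119.3 and 120.0 in Trp53-/-, with 0 of 11 called. With no limit on the fold 0 were higher and 1 was lower, Msi1 (-0.96, q = 0.0299), and Nes had the highest difference (0.75, q = 0.109).

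**Figure D4:**
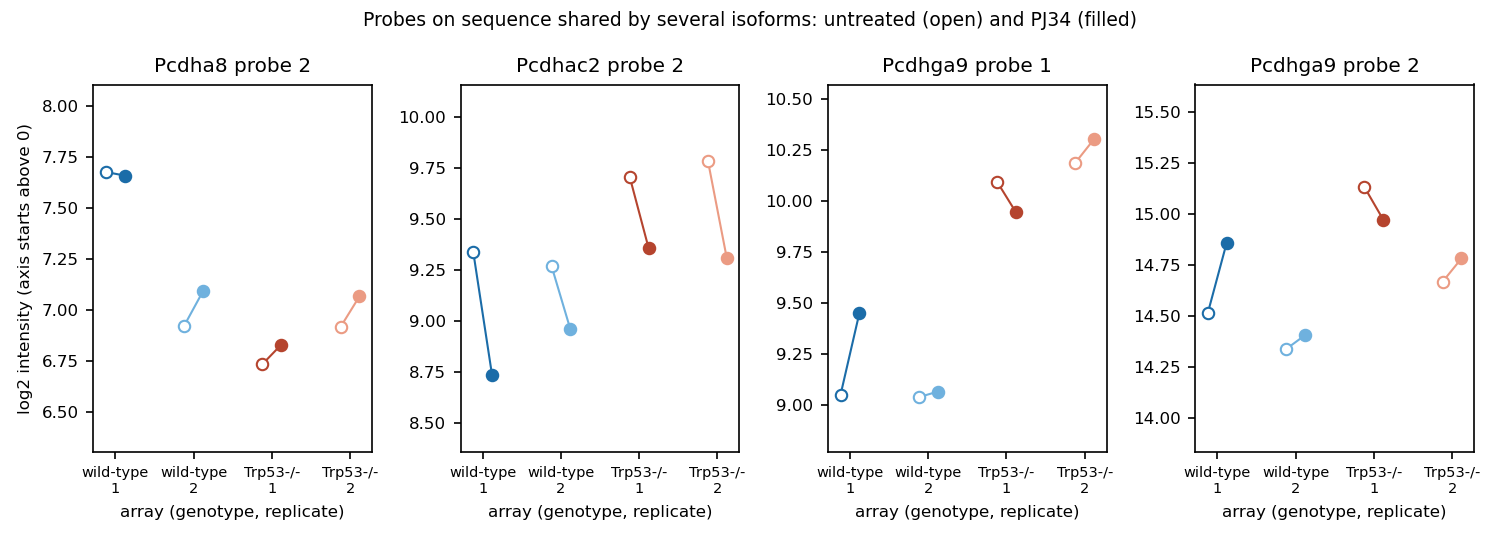
Log2 intensity (y axis, each panel its own range of equal length, not from 0) of the 4 member probes listed with several isoforms on each array (x axis), untreated (open) and PJ34 (filled), with a line joining the channels of 1 array. For Pcdhac2 every line points down, from 9.34 to 8.74 on the first array, and for Pcdhga9 probe 1 both channels of the Trp53-/- arrays lie above those of the wild-type arrays.

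Genes that act on or beside the clusters were read from lists. Of the CTCF and cohesin genes, which set promoter choice in the clusters, 0 of 11 were called in any comparison. Without the fold limit 1 of 11, the cohesin subunit Rad21, was lower in wild-type (-0.28, q = 0.0414), against 10.4% of all tested probes. In Trp53-/-, 3 of 11 were higher, against 12% of all tested probes. Stag2 was the highest there (0.33, q = 0.0298, with 0.48 and 0.18 on the 2 arrays). The loader subunit Mau2 was the lowest (-0.02, q = 0.46, with -0.14 and 0.10). Of 12 silencers and chromatin regulators, 0 were called. Uhrf1, which guides maintenance of DNA methylation, had the lowest ratio in wild-type (-0.87, q = 0.000211) and in Trp53-/- (-0.20, q = 0.0874). The histone methyltransferase Ehmt1 had the highest in wild-type (0.65, q = 0.00061), and Smchd1, a silencer of the clusters and of the inactive X chromosome, in Trp53-/- (0.59, q = 0.0028). Of 13 signalling partners and proteases with a tested probe, 0 were called. Marcks had the lowest ratio in both genotypes (-0.31, q = 0.0242, and -0.33, q = 0.02), and Cyfip2 (0.37, q = 0.0209) and Wnk1 (0.23, q = 0.0633) had the highest.

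Of 10 tested nonclustered protocadherins, which are encoded singly elsewhere in the genome, 0 were called after PJ34. Pcdh17 had the highest ratio in wild-type (0.46, q = 0.00375) and Pcdh19 in Trp53-/- (0.76, q = 0.000675), while Pcdh9 (-0.17, q = 0.12) and Pcdh15 (-0.30, q = 0.0259) were lowest. The list's medians were 0.093 and 0.12. Pcdh11x, an X-linked gene like Pcdh19, was called lower in untreated Trp53-/- cells (-1.02, q = 0.0242). Of 12 classical cadherins and catenins, 0 were called after PJ34. Cdh4 (-0.54, q = 0.00288) and Cdh13 (-0.51, q = 0.0093) were lowest in wild-type and Trp53-/-, and Ctnnd2 (0.27, q = 0.0335) and Ctnnb1 (0.19, q = 0.0925) highest, and Cdh13, a cadherin held by a lipid anchor, was called higher in untreated Trp53-/- cells (1.52, q = 0.025). Of 8 large atypical cadherins, 0 were called in any comparison. Dchs1 was lowest in both genotypes (-0.29, q = 0.0474, and -0.13, q = 0.231), with Celsr1 (0.43, q = 0.00687) highest in wild-type and Fat4 (0.61, q = 0.00135) in Trp53-/-.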

How the data were processed

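RNA of PJ34-treated (Cy5) and untreated (Cy3) NSPCs was compared on 4 arrays of 55681 probes. The authors deposited spot and local background intensity values, extracted with Feature Extraction 10.7.3.1, and its log10 ratios, which were used as an alternative only, after conversion to log2. In the authors' files 29.3% to 33.1% of these ratios are exactly 0. A table with 4 columns named by number only was not used. Probe positions are those of the files (mm9). RefSeq accessions gave symbols (GRCm38.p6) to 26300 probes.

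The background was corrected by normexp (limma 3.58.1, R 4.3.3) with an offset of 50, ratios were normalized by loess within arrays, and outlier spots (228 to 276 per array) were left out. No spot was saturated. Levels were taken from each channel after quantile normalization of mean intensities between arrays. Per channel, 21503 to 27154 probes were well above background, and the number of arrays limits the precision. limma was fitted to all 27035 kept probes, and a probe was called at p and Storey's q below 0.05 and over 2-fold. The ratio fit had 10.52 and the untreated fit 6.18 degrees of freedom after moderation. The p-values measure the spread between these samples. For a channel that no array of a genotype detected, a lower limit of the mean fold ("at least") was given, without the spread between arrays. It set the mean of the brighter channel against a floor, which on each array was the lowest detected signal or the dim channel's own signal, whichever was higher. Dye bias can affect it. The fits were tested on simulated data.

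The members and lists were chosen with earlier results of these data known. Named members were those called, the highest and lowest mean per cluster and comparison, the C-type isoforms and genes whose probes differed in being kept. From each list, called genes and the highest and lowest ratio per genotype were named, from the probe with the highest mean intensity. Pcdhb21, Lbr, Dnmt1, Cspg4, the Y-linked genes and probes named for their detection alone were chosen after their values were seen. Cell type markers that were neither called nor the highest or lowest of their list were chosen so too. Alternatives covered the background, normalization, filter, test, replicate block and each array left out, with a crossed pairing added after seeing the data. The lists were of CTCF and cohesin, silencers, signalling partners, other cadherins and cell type markers. Results for 1 marker gene are not reported here.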

Additional observations from a re-analysis of the deposited data

Results flagged for a closer look

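No clustered protocadherin differed between genotypes in its response to PJ34 at q below 0.05 (0 of 18, and 0 of 18 at an unadjusted p below 0.05). In the lists beside them 6 genes did, by limma's test of the difference (wild-type minus Trp53-/-), none over 2-fold and none called. Pcdh19 differed by -0.66 (q = 0.0412). Of the silencers and chromatin regulators, Lbr differed by -0.71 (q = 0.0215), Uhrf1 by -0.67 (q = 0.033) and Dnmt1 by -0.61 (q = 0.043). For each, the ratio of PJ34 over control was lower in wild-type than in Trp53-/- cells. Their untreated levels, as Trp53-/- minus wild-type, differed by -0.76 (q = 0.121), -0.67 (q = 0.106) and -0.38 (q = 0.239). Their levels after PJ34 were not tested between genotypes. The astrocyte marker S100b differed by 0.69 (q = 0.037) and the oligodendrocyte lineage marker Cspg4 by 0.95 (q = 0.0359).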

How the results depend on the processing

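For 26 results, 416 values were recomputed under alternatives, and 335 kept their direction and side of the threshold, or stayed within the spread between arrays. Alternatives of the test alone, such as the adjustment, the variance trend or the replicate block, could not move a cluster median but are in these counts. The share kept is therefore no measure of how robust the results are. Without the fold limit, 3 members passed in wild-type and 4 in Trp53-/-, against 11 and 12 with median centring, 1 and 0 with the scanner's log ratios, and 1 and 4 with Benjamini-Hochberg adjustment. With the scanner's log ratios 1 member, the probe of Pcdhac2 alone, was called in wild-type (-1.30), and with median centring 1, the shared Pcdhga9 probe A_55_P1961863, was called in Trp53-/- (1.07). In untreated cells 0 members were called with median centring and 0 with the scanner's processed signal (1 with the other alternatives that kept all arrays). The cause was not tested.

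Median centring reversed the shared Pcdhac2 probe to 0.10 in wild-type and 0.36 in Trp53-/-, and Pcdhb21 to 0.41 and Pcdhb22 to 0.17 in Trp53-/-. The medians of the alpha, beta and gamma clusters became 0.12, 0.42 and 0.76 in wild-type, 0.19, 0.44 and 0.80 in Trp53-/-, and -0.13, -0.021 and -0.098 for the difference of the responses, with 0.33 for beta in untreated cells. Single members moved by different amounts, from -0.27 to -0.30 for the probe of Pcdhac2 alone in wild-type. Of all tested probes, 1385 were called higher and 3 lower in wild-type in place of 71 and 47, with 4020 and 4 in Trp53-/- in place of 19 and 67. With the scanner's ratios or signals, alpha was at -0.21 and beta at -0.13 in Trp53-/-, alpha at -0.12 for the difference, and beta at 0.41 and gamma at 0.42 in untreated cells. With no filter, alpha was at 0.032 in wild-type and 0.0069 in Trp53-/-, beta at 0.087 and gamma at -0.0070 for the difference, and beta at 0.21 and gamma at 0.12 in untreated cells. The strict filter put alpha at -0.14 in Trp53-/- and gamma at 0.78 in untreated cells. With 1 probe per gene alpha was at 0.076 and 0.0069, an offset of 16 gave -0.15 for alpha in Trp53-/-, and quantile normalization of the control channel gave 0.25 for beta.

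With each array left out in turn, the lone array of a genotype was assumed to vary like those of the other genotype. By this, 0 members were called in any PJ34 comparison, and 0 to 1 in untreated cells. The beta median in wild-type ran from -0.0091 to 0.10. For the difference of the responses the alpha median ran from -0.11 to 0.074, the beta median from 0.045 to 0.18 and the gamma median from 0.043 to 0.37. In untreated cells the beta median ran from 0.25 to 0.37 and the gamma median from 0.24 to 0.70.

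The replicate numbers are not stated to mark a shared litter or day, and same-numbered arrays deviated with a correlation of -0.17 (ratios) and 0.074 (untreated levels). With a replicate block 0 members were called in the PJ34 comparisons and 1 in untreated cells (1.10, q = 0.00358), with 548 probes called higher and 672 lower in untreated cells. Without the fold limit the replicate block left 1 of 3 members in wild-type. With the numbers crossed, an alternative chosen after seeing the data, 0 members were called in the PJ34 comparisons, and 123 probes had a higher and 10 a lower response in wild-type. Over all alternatives, untreated calls ran from 0 to 867 higher and 0 to 992 lower.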

Other observations

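Of the marker lists after PJ34, 0 progenitor, neuron and astrocyte markers were called in either genotype. The membrane protein Prom1 was the progenitor marker with the highest ratio in both (0.58, q = 0.00151, in wild-type and 0.73, q = 0.000789, in Trp53-/-), and Slc1a3 (-0.37, q = 0.0103) and Vim (-0.31, q = 0.032) had the lowest. Of the neuron markers, the neurofilament gene Nefl had the highest ratio in both (0.57, q = 0.003, and 0.52, q = 0.00584), and Gap43 (-0.23, q = 0.0611) and Mapt (-0.38, q = 0.0173) had the lowest. Of the astrocyte markers, Aldh1l1 (0.28) and Gfap (0.81) had the highest, and Aldoc (-0.40) and S100b (-0.62) the lowest, with Gfap at -0.00018 and 1.62 on the 2 Trp53-/- arrays. Of the oligodendrocyte markers, Olig1 (0.20) and Mog (0.03) had the highest, and 0 were higher at q below 0.05 in either genotype. In wild-type, Pdgfra (-0.43, q = 0.018) and Olig2 (-0.31, q = 0.0268) were lower. In Trp53-/-, Cspg4 (-0.83, q = 0.00208), Olig2 (-0.53, q = 0.00319), Mbp (-0.36, q = 0.0222) and Pdgfra (-0.32, q = 0.0494) were lower. On Trp53-/- replicate 1 these markers were at -0.93, -0.52, -0.39 and -0.55. Only 4 of 8 microglia and endothelial markers and 3 of 8 meningeal and mesenchymal markers had a tested probe, and 0 were called after PJ34. The first list ran from -0.02 (Kdr) to 0.23 (Itgam) in wild-type and from -0.13 (Csf1r) to 0.13 (Itgam) in Trp53-/-, and the second from -0.77 (Thy1) to 0.16 (Col1a2) and from -0.47 (Thy1) to 0.08 (Col1a2). In untreated cells Kdr, the endothelial VEGF receptor, was called lower in Trp53-/- (-1.34, q = 0.0159) and Thy1, which neurons also carry, was called higher (1.09, q = 0.0235).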
